A study of Saccharomyces cerevisiae with 12 samples.

Results

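The most telomere-proximal genes of the yeast chromosomes were followed across cells that lacked EUC1, cells that overexpressed it and their controls. Membership follows from a rule on names: systematic names of Saccharomyces cerevisiae number the open reading frames of a chromosome arm outwards from the centromere, and all identifiers that carry 1 of the 6 highest numbers of an arm were taken. A number stood for more than 1 identifier where suffixed names share it, and 2 identifiers were left out by the rule. Of 6825 identifiers in the table, 6405 have such an arm and number, and 213 of them on 32 arms were members, with 5 to 10 on an arm. The rule reads no expression value, although it was proposed with earlier results of these data known. The R64 annotation of RefSeq holds 176 of the members, 4 of them as pseudogenes, and they lie between 52 and 24340 bases from the end of their chromosome in the reference genome, with a median of 8163 bases. The other 37 are not annotated there and are given by their systematic names.

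PolyA RNA was sequenced from 4 groups of 3 samples. WT and euc1∆ cells are cells of the DF5 strain background grown with glucose, and both carry the integrated URA3 plasmid YIplac211-MED11, which supplies a further copy of the gene next to EUC1. The euc1∆ cells have the EUC1 (YMR111C) reading frame replaced by natNT2. Control and pGAL-EUC1 cells are both ymr111c::natNT2 in W303 RAD5, with EUC1 returned on a URA3 plasmid behind its own promoter in the control and behind the galactose-inducible GAL promoter in pGAL-EUC1. These 2 groups were grown with raffinose before galactose (2%) induced the promoter for 3 h. The labels do not say that the samples of a group were separate cultures, so the p-values measure the spread between these samples, which may be technical. The labels held for EUC1 itself, whose WT samples lay between 9.56 and 16.0 TPM. None of the euc1∆ samples exceeded 0.09 TPM, the control lay between 30.8 and 50.6 TPM, and pGAL-EUC1 between 1942 and 2035 TPM. TPM, a length-normalised share of the transcripts of a sample, divides the reads of a gene by its length and scales a sample to a common total, so it compares levels between genes and keeps no record of depth.

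Chromosome ends of budding yeast carry short X elements and, on many arms, longer Y′ elements that encode helicases. Next to them lie gene families that were copied from end to end, such as the Cos proteins, the seripauperins, maltose utilisation genes, hexose transporters and flocculins. Genes close to a telomere can be silenced by the Sir proteins, which spread from the telomere-bound factor Rap1, and many of these families respond to carbon source, oxygen or nutrient supply. Euc1 resembles transcription factors in its domains and recruits the SUMO-targeted ubiquitin ligase Slx5/Slx8 to a few chromosomal sites.

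Much of what was measured here comes from repeated sequence. Every window of 75 bases, the length of the reads, was looked for in the rest of the reference genome. Of the 176 annotated members, 59 shared no window, 34 shared under 50% of their windows and 83 shared 50% or more with another place in the genome. In all, 117 shared at least 1 window with another place, and 93 shared one with another member, in 22 sets of linked members. The sequences below are from the R64 genome and are shown because the results for these genes turn on how alike they are. Capitals mark the bases that differ from the first sequence of a set, and positions in a gene are counted from 1 at its start codon.

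The sorbitol dehydrogenase genes SOR1 and SOR2 lie at the ends of different chromosomes and differ in 1 base of 1074. Both stretches run from base 287 to base 361 of the gene, at chrX:736330-736404 on the plus strand and at chrIV:9396-9470 on the minus strand, and capitals mark that base in both.
SOR1: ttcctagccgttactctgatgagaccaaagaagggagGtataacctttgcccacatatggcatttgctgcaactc
SOR2: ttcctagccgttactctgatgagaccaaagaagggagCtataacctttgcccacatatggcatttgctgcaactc
Only reads that cover this base tell the genes apart, and 925 of the 1000 windows of SOR1 are also in SOR2.

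The short seripauperin gene PAU9 is identical over its whole length to the end of PAU12, from base 235 to base 363. PAU9 lies at chrII:7605-7733 on the minus strand and the stretch of PAU12 at chrVII:1080540-1080668 on the plus strand. The same stretches of PAU14 (chrIX:8793-8921, minus strand) and PAU18 (chrXII:13083-13211, minus strand) differ from PAU9 in 3 and 6 bases.
PAU9: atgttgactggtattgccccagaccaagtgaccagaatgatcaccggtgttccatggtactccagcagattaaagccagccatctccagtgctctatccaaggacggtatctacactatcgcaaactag
PAU12: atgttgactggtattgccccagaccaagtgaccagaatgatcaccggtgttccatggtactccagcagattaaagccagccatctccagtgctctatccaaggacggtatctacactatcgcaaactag
PAU14: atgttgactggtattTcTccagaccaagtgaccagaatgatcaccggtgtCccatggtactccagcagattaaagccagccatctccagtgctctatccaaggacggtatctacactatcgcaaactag
PAU18: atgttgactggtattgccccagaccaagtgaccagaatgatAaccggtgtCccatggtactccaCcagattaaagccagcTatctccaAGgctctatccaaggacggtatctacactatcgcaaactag
All 55 windows of PAU9 are found in PAU12.

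The Cos genes, which encode endosomal proteins that act in the turnover of plasma membrane proteins, are shown by their first 75 bases. COS2 (chrII:811405-811479, minus strand) and COS3 (chrXIII:7244-7318, plus strand) are identical over all 1140 bases of the gene, and COS1 (chrXIV:8330-8404, plus strand) shares the stretch shown. COS6 (chrVII:1082655-1082729, minus strand) differs in 2 of these bases and COS8 (chrVIII:6401-6475, plus strand) in 9.
COS2: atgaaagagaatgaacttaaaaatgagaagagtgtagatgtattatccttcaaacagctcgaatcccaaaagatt
COS3: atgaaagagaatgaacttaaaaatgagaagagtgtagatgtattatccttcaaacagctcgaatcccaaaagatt
COS1: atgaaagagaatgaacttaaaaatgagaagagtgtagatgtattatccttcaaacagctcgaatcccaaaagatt
COS6: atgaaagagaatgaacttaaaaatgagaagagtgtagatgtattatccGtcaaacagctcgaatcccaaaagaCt
COS8: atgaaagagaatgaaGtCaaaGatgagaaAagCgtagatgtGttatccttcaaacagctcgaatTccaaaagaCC
COS2 shares 320 of its 1066 windows with COS1, 7 with COS8 and none with COS6.

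The enolase-related genes ERR1 and ERR2 are identical over 1314 bases, while ERR3 differs from them in 12, of which 4 fall in the stretch from base 617 to base 691. These lie at chrXV:1080892-1080966 on the plus strand, chrXVI:10180-10254 on the minus strand and chrXIII:920704-920778 on the plus strand.
ERR1: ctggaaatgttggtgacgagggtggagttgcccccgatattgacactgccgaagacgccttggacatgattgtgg
ERR2: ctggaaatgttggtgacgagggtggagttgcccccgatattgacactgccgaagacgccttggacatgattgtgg
ERR3: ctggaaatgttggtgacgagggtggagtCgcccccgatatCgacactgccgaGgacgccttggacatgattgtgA
For the Y′ elements a window of the helicase gene YRF1-1, from base 2398 to base 2472 at chrIV:1528718-1528792 on the plus strand, stands for the set. It occurs 19 times in the genome, and 19 of the 31 members linked by Y′ sequence hold it.
YRF1-1: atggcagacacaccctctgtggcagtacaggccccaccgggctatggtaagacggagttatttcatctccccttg
A read from this window could belong to any of these 19 genes.

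The members were expressed at low levels in every sample. Their median was 1.69 to 2.26 TPM in the 6 DF5 samples and 5.31 to 6.38 TPM in the 6 W303 samples, against 27.4 to 31.0 and 42.3 to 46.0 TPM for the open reading frames that are not members. At least 1 TPM was listed for 56.3 to 62.9% of the members in DF5 and 68.5 to 73.2% in W303, and for 96.1 to 97.8% of the other open reading frames in any sample. The members summed to 2185 to 2449 TPM in DF5 and to 4895 to 5135 TPM in W303, which was 0.221 to 0.247% and 0.495 to 0.520% of a sample. The 10 highest members of a sample held 49.7 to 59.9% of that sum. In all, 114 members were above 0 in all 12 samples and 20 were at 0 in all 12, 10 of the latter without a RefSeq annotation.

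Levels were lower at the ends than further in. The median of the group means in WT was 1.83 TPM over the 33 outermost members, 0.64 TPM over the 38 in the second position, 1.38 TPM in the third, 2.76 TPM in the fourth, 2.01 TPM in the fifth and 3.40 TPM over the 40 in the sixth position. It was 9.63 TPM over the 207 genes in positions 7 to 12 and 29.7 TPM over the open reading frames that are not members. The outermost members of the control had a median of 5.12 TPM and those in the sixth position 7.62 TPM. By these medians of group means, the outermost position was not the lowest in any group, and the second position was in each. Within single control samples the median of the outermost position was lower, at 2.92, 3.56 and 4.48 TPM. In control sample 1 it was the lowest of the positions, with the second position at 4.68 TPM. The 59 members with no shared window had a median of 5.65 TPM in WT and 12.4 TPM in the control, against 1.81 and 6.41 TPM for the 83 that shared at least 50%, so level, position and repetition go together in these genes and were not told apart.

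**Figure D1:**
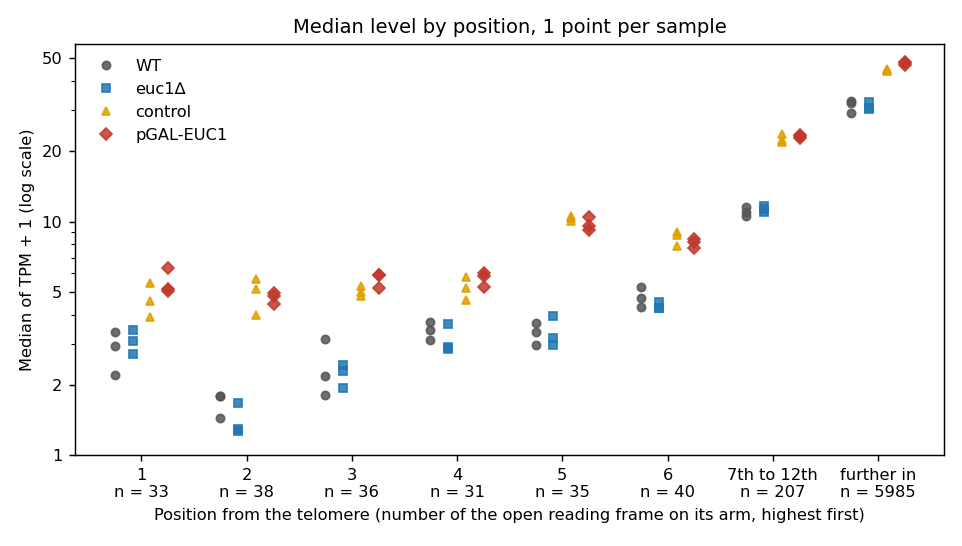
Median TPM + 1 (log axis) of the open reading frames at each position from the telomere, 1 point per sample, with the number of genes below. In every sample the members (positions 1 to 6) lie below the genes in positions 7 to 12, with medians of 9.56 to 10.6 TPM in DF5 and 21.0 to 22.7 TPM in W303, and these lie below the genes further in.

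A few members were expressed well. The highest were DLD3, REE1, HXK1, YML131W, YFR052C-A and HYR1, followed by RPN12, COX14, COS6, ERO1, IRC7 and GTT1. DLD3, a 2-hydroxyglutarate transhydrogenase, was at 245, 277 and 264.25 TPM in WT and 442, 424 and 422 TPM in the control. REE1, which takes part in the regulation of the enolase Eno1, was at 259, 245 and 344 TPM and at 276, 290 and 308 TPM, so that the groups overlapped. RPN12, a subunit of the proteasome regulatory particle, was at 145, 135 and 145 TPM in WT and 144, 156 and 146 TPM in the control, with no separation of the groups either. None of these 3 genes shares a window with another place, and each lies 16354 or more bases from its chromosome end. Only 6 members reached 100 TPM in a DF5 sample, and 12 or 13 did in a W303 sample.

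**Figure D2:**
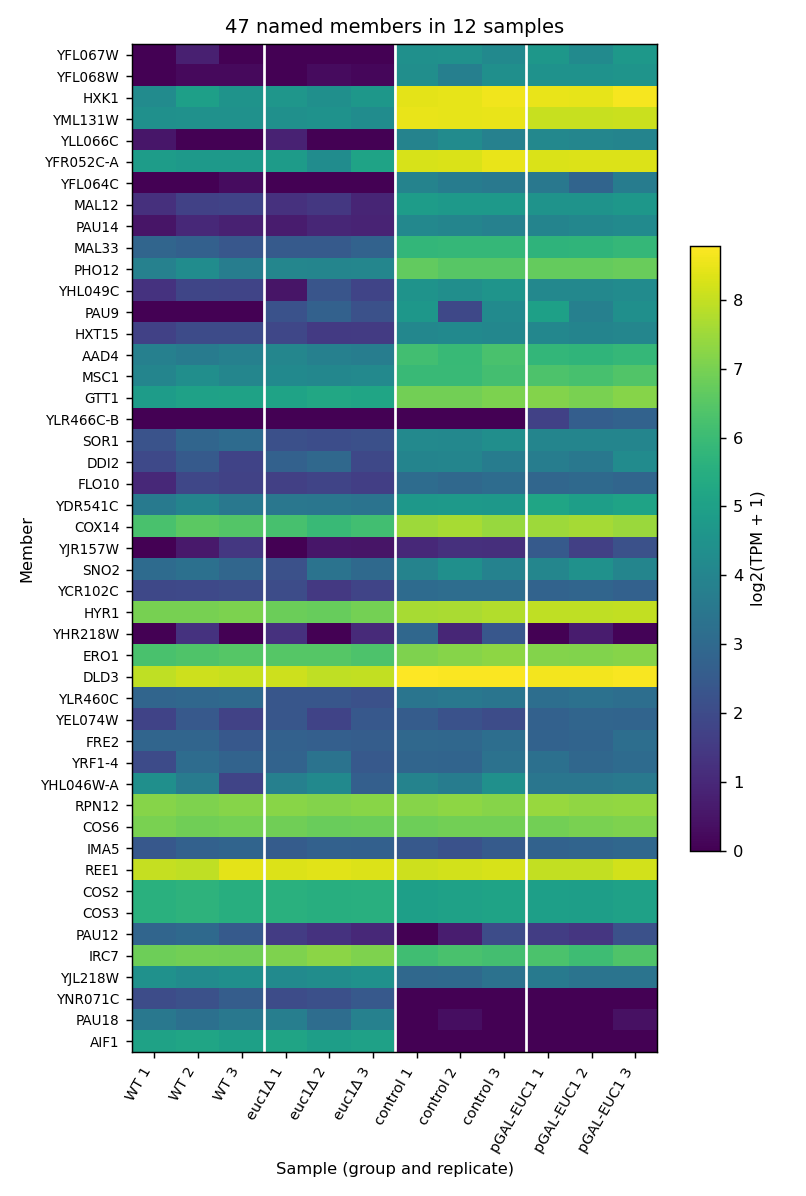
Heat map of log2(TPM + 1) in 12 samples (columns, grouped) for the 47 members named by rule (genes in the order of their difference between the 6 W303 and the 6 DF5 samples). Within an experiment the columns of a pair of groups look alike, and most genes are brighter in the 6 W303 samples than in the 6 DF5 samples, with AIF1, PAU18 and YNR071C as the reverse at the bottom.

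Whether the loss of EUC1 changes the genes at chromosome ends was asked by comparing euc1∆ with WT. Few features of any kind were called. The test was that of limma on log2(TPM + 1). Features had to reach a mean of 1 TPM in the 6 samples, and p-values were adjusted by Benjamini-Hochberg over all features tested. Fold changes are therefore on the log2(TPM + 1) scale, which understates changes of low genes. Of 213 members, 125 passed the filter and 1 was called at an adjusted p under 0.1, against 2 of 6217 features (0.0322%). At an unadjusted p under 0.01 there were 4 members, 3.2% of those tested, against 120 features (1.93%) and against 3 of 187 tested genes in positions 7 to 12. The median log2 fold change was -0.05 over the tested members and 0.01 over all features. With so few calls, the member counts cannot be read as apart from the background. The median SE was 0.209 over the tested members and 0.118 over the tested features that are not members. The lack of calls therefore does not show that the members were alike in both groups.

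The called member was PAU9, at 0, 0 and 0 TPM in WT and 3.67, 5.70 and 3.53 TPM in euc1∆. Its log2 fold change was 2.38 (SE 0.29) with an adjusted p of 0.0957 (limma). PAU12, which holds the whole sequence of PAU9, differed in the opposite direction, with 6.35, 7.08 and 4.68 TPM in WT and 1.96, 1.46 and 1.02 TPM in euc1∆, a log2 fold change of -1.51 (SE 0.24) with an unadjusted p of 0.000224 and an adjusted p of 0.160 (limma), so that it was not called. The groups did not overlap for either gene. The sum of the 2 genes was 6.35, 7.08 and 4.68 TPM in WT and 5.63, 7.16 and 4.55 TPM in euc1∆, and these sums overlapped (exact permutation test, two-sided p = 0.8, n = 3, smallest possible p 0.1). Seripauperins are small proteins of a family induced in anaerobic growth. When annotated genes that share any window were added up, no member or set of members was called in euc1∆ (0 of 88, and 1 of 6071 over the table), with 2 of the 88 at an unadjusted p under 0.01, and the seripauperin set of 12 genes with PAU9 and PAU12 had a log2 fold change of -0.07 (SE 0.12). This summing was chosen after the values had been seen. PAU9 passed the filter through the euc1∆ samples alone, and its call was also lost with a pseudocount of 0.1 or 5 and without any 1 of the 6 samples.

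The other 2 members under the unadjusted threshold were YLR460C and IRC7, and neither was called. YLR460C, a member of the quinone oxidoreductase family, was at 6.36, 6.70 and 7.11 TPM in WT and 4.07, 4.08 and 3.58 TPM in euc1∆, a log2 fold change of -0.65 (SE 0.15) with an unadjusted p of 0.0028 and an adjusted p of 0.305 (limma). It shares 8.89% of its windows with other places. YCR102C, the gene linked to it by shared windows, was at 2.72, 2.84 and 3.10 TPM in WT and 3.17, 1.77 and 2.52 TPM in euc1∆, with overlapping groups. The sum of both was 9.08, 9.54 and 10.2 TPM in WT and 7.24, 5.85 and 6.10 TPM in euc1∆, with no overlap, and its log2 fold change of -0.52 (SE 0.14) had an adjusted p of 0.432 (limma). IRC7, a cysteine desulphydrase with no shared window, was at 114, 120 and 118 TPM in WT and 137, 153 and 136 TPM in euc1∆, a log2 fold change of 0.27 (SE 0.08) with an unadjusted p of 0.0064 and an adjusted p of 0.426 (limma).

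Over all 213 members, with no filter, the mean was higher in euc1∆ for 67, lower for 110 and 0 in both groups for 36. The higher means were 31.5% of the members, 48.3% of the genes in positions 7 to 12 and 51.1% of the open reading frames that are not members, and the lower means 51.6, 48.8 and 48.1%. All 3 euc1∆ samples were above all 3 WT samples for 5 members and below for 14, which is 2.35 and 6.57% of the members, and 5.65 and 7.09% of the other open reading frames. By family, PAU9 was the single call among the members of the 12 lists. Median log2 fold changes lay between -0.23 for 3 tested genes of thiamine and pyridoxine synthesis and 0.47 for the cyanamide hydratase gene, with -0.05 for 8 Cos genes, -0.01 for 8 Y′ helicases, -0.13 for 7 maltose and isomaltose genes and 0.11 for 2 aryl-alcohol dehydrogenases. The summed Y′ set of 31 members was at 79.8, 104 and 110 TPM in WT and 101, 107 and 97.5 TPM in euc1∆. These ranges overlapped, and the log2 fold change was 0.07 (SE 0.12). Of 17 genes of telomere binding and silencing, such as those of the Sir proteins, Rap1 and the Ku proteins, none was called. SIR2, the histone deacetylase of the silencing complex, was at 23.2, 28.8 and 32.1 TPM in WT and 15.6, 15.2 and 15.6 TPM in euc1∆, a log2 fold change of -0.81 (SE 0.13) with an unadjusted p of 0.000224 and an adjusted p of 0.160 (limma). After rescaling each sample by the median of ratios it was called, with a log2 fold change of -0.82 (SE 0.09) and an adjusted p of 0.0805 (limma).

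Overexpression of EUC1 was compared with its expression from its own promoter in galactose. Of the members, 156 were tested and 16 were called, 10.3%, against 1294 of 6332 features (20.4%) and 40 of 196 genes in positions 7 to 12 (20.4%). The median SE was 0.145 over the tested members and 0.061 over the tested features that are not members. The lower share called can therefore not be read as less change in the members. The 9 called members that rose were 5.77% of those tested, against 1014 features (16%), and the 7 that fell were 4.49%, against 280 features (4.42%). The median log2 fold change was 0.02 over the tested members and 0.08 over all features. After rescaling each sample by the median of ratios, 850 features were called, 239 higher and 611 lower, and 16 members, 3 higher and 13 lower. In both scalings 10 members were called in the same direction, of which YDR541C, YLR466C-B and HYR1 were higher and AAD4, MAL12, YML131W, YHL049C, YHL046W-A, YHR218W and YCR102C lower. MSC1, PHO12, RPN12, IMA5, YEL074W and YJR157W were called higher only without the rescaling.

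Several called members encode enzymes of redox and aldehyde metabolism. The smallest adjusted p of a member was that of YML131W, which is related to medium-chain dehydrogenases. It was at 361, 356 and 357 TPM in the control and at 268, 264.47 and 270 TPM in pGAL-EUC1 (limma log2 fold change -0.42, SE 0.03, adjusted p = 0.000927). AAD4, a putative aryl-alcohol dehydrogenase, was at 68.9, 59.6 and 75.2 TPM and at 55.6, 53.4 and 57.6 TPM (-0.28, SE 0.08, adjusted p = 0.0687). The summed set of 5 aryl-alcohol dehydrogenase genes with AAD4 fell by 0.44 on the log2 scale (SE 0.07, adjusted p = 0.0115). Most of that sum came from AAD6, which is not a member. AAD6 was at 498, 516 and 579 TPM in the control and at 362, 349 and 400 TPM in pGAL-EUC1, so the set says little about AAD4. The members AAD3 and AAD15 of the set were not called. These other genes of the set are named after their values had been seen. YCR102C, a putative quinone oxidoreductase, was at 7.48, 7.80 and 7.73 TPM and at 5.90, 6.33 and 5.68 TPM (-0.32, SE 0.11, adjusted p = 0.0962). Added to YLR460C, it stayed called (-0.29, SE 0.07, adjusted p = 0.0383). In the other direction, HYR1, a glutathione peroxidase and hydroperoxide sensor, was at 198, 205 and 221 TPM and at 248, 245 and 254.53 TPM (0.26, SE 0.05, adjusted p = 0.0213). YDR541C, an aldehyde reductase, was at 24.6, 25.6 and 24.8 TPM and at 35.0, 29.7 and 33.6 TPM (0.37, SE 0.07, adjusted p = 0.0213). The control and pGAL-EUC1 samples did not overlap for any called member of this paragraph.

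Of sugar and phosphate metabolism, 3 members were called. MAL12, a maltase gene, was at 27.9, 25.9 and 25.8 TPM in the control and 22.1, 21.6 and 23.9 TPM in pGAL-EUC1 (limma log2 fold change -0.22, SE 0.06, adjusted p = 0.0601). IMA5, an isomaltase, was at 4.53, 3.67 and 4.72 TPM and at 5.77, 6.12 and 6.69 TPM (0.44, SE 0.15, adjusted p = 0.0905). These were the 2 called genes among 8 tested members of the maltose and isomaltose list, and they moved in opposite directions. PHO12, a repressible acid phosphatase, was at 100.5, 89.7 and 89.7 TPM and at 105, 104 and 108 TPM (0.18, SE 0.05, adjusted p = 0.0739), while its near copy PHO11 was at 48.9, 47.7 and 43.0 TPM and at 52.8, 45.7 and 43.9 TPM, with overlapping groups. MSC1, a nuclear envelope protein that acts in double-strand break repair, was at 60.9, 61.0 and 70.8 TPM and at 79.9, 73.4 and 84.2 TPM (0.30, SE 0.08, adjusted p = 0.0484). RPN12 was at 144, 156 and 146 TPM and at 171, 158 and 166 TPM (0.15, SE 0.05, adjusted p = 0.0865).

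The remaining 6 called members are either repeated or without an annotation in RefSeq. YLR466C-B was at 0 TPM in the 3 control samples, as in all 6 DF5 samples, and at 2.24, 5.21 and 5.79 TPM in pGAL-EUC1 (limma log2 fold change 2.36, SE 0.41, adjusted p = 0.0190), so that it passed the filter through these 3 samples alone. YJR157W was at 1.00, 1.34 and 1.29 TPM and at 4.62, 2.21 and 3.51 TPM (0.97, SE 0.30, adjusted p = 0.0787), and YEL074W at 4.90, 3.66 and 3.17 TPM and at 5.65, 6.23 and 6.15 TPM (0.53, SE 0.17, adjusted p = 0.0877). YHL046W-A fell from 14.4, 11.96 and 20.5 TPM to 9.85, 9.90 and 10.7 TPM (-0.54, SE 0.17, adjusted p = 0.0812). These 4 have no coordinates in RefSeq, so what they share with other genes was not looked up. YHL049C, of which every window occurs elsewhere, fell from 22.0, 19.4 and 22.5 TPM to 16.1, 16.4 and 18.1 TPM (-0.32, SE 0.08, adjusted p = 0.0464). YHR218W was at 6.63, 0.91 and 4.29 TPM in the control and at 0, 0.58 and 0.05 TPM in pGAL-EUC1 (-1.85, SE 0.57, adjusted p = 0.0783). All 1837 of its windows are in YBL111C, and the sum of both was 6.63, 10.7 and 10.1 TPM in the control and 9.91, 9.24 and 8.13 TPM in pGAL-EUC1, which overlapped.

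Families at the chromosome ends gave few calls with overexpression. None of 6 tested seripauperin members, 8 Cos members, 8 Y′ helicases or 3 hexose transporters was called. The Y′ set summed to 367, 357 and 367 TPM in the control and to 371, 347 and 371 TPM in pGAL-EUC1 (log2 fold change -0.00, SE 0.04). The seripauperin set was at 55.2, 36.5 and 55.0 TPM and at 65.2, 50.1 and 60.7 TPM (0.27, SE 0.16, limma, adjusted p = 0.285). The summing of genes that share windows gave 14 called of 104 member genes or sets (13.5%), 10 higher and 4 lower, against 1289 of 6161 over the table (20.9%). Among the 17 silencing genes CYC8 alone was called, with a log2 fold change of -0.21. How many members were called depended on single samples: 4 were called without pGAL-EUC1 sample 1, 6 without its sample 3, 7 without control sample 1 and 9 without control sample 3. In a single fit over all 12 samples 3 members were called, and only YML131W, HYR1 and YLR466C-B kept their call in every alternative that gave a value, the last of them tested only because of its pGAL-EUC1 samples.

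**Figure D3:**
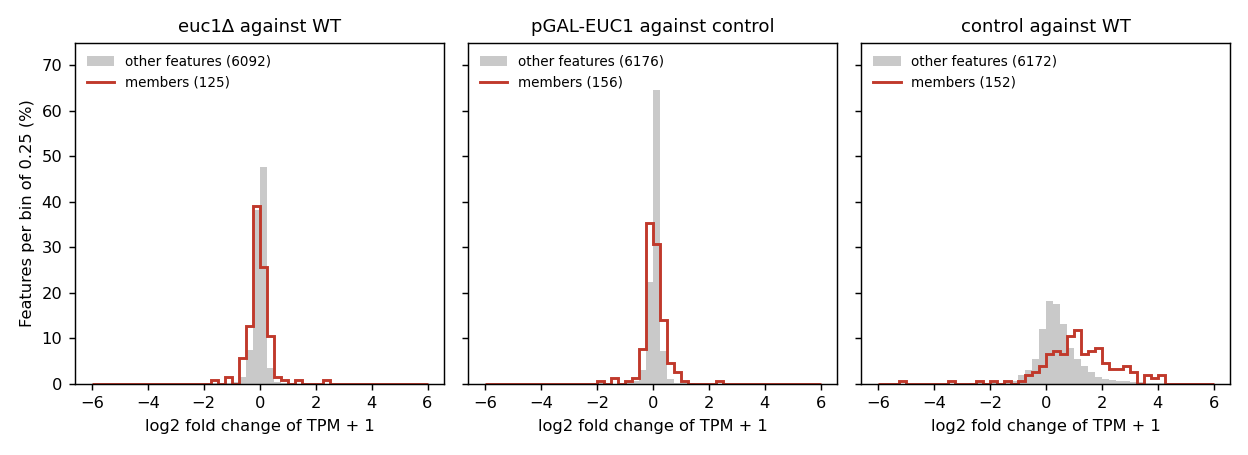
Distribution of log2 fold changes of TPM + 1 (bins of 0.25, percent of features) for the tested members (red line) and all other tested features (grey) in the 3 comparisons. Members centre near 0 in the first pair of panels (medians -0.05 and 0.02) and at 1.17 for control against WT, where other features centre at 0.35, with the filter on low values acting on the members more than on others (a median of 0.74 over all 213 members with no filter).

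To set all 4 groups side by side, the control was compared with WT. Strain background, medium, the place of EUC1, the number of MED11 copies and the experiment differ together here, so their parts cannot be told apart. This comparison shares the WT samples with that of euc1∆ and the control samples with that of pGAL-EUC1, and the values are therefore not independent of those above. The members were on the whole higher in W303 cells in galactose. Their sum was 2185, 2331 and 2449 TPM in WT and 4977, 5001 and 5135 TPM in the control, 2.17 times as much, with no overlap (exact permutation test, two-sided p = 0.1, n = 3, the smallest possible). It was 5037 ± 85.2 TPM (SD, n = 3) in the control and 5006 ± 120 TPM in pGAL-EUC1, and 2322 ± 132 TPM in WT and 2301 ± 58 TPM in euc1∆. Of 152 tested members, 118 were called (77.6%), against 4494 of 6324 features (71.1%) and 147 of 197 genes in positions 7 to 12 (74.6%). Higher calls made up 109 members (71.7%), against 3654 features (57.8%), and lower calls 9 members (5.92%), against 840 features (13.3%). The share called was thus near the background. The median log2 fold change was 1.17 over the tested members, 0.59 over positions 7 to 12 and 0.36 over all features. The filter bears on this median, since 30 of the 152 tested members had a mean under 1 TPM in WT and passed through the control, and 4 passed through WT. With no filter, the median difference of log2(TPM + 1) was 0.74 over all 213 members, 0.57 over positions 7 to 12 and 0.35 over the open reading frames that are not members.

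All features being shifted by 0.36, changes are also given relative to that shift. Rescaled by the median of ratios, the features had a median of -0.00, with 2202 called higher and 2150 lower, and the members a median of 0.85, with 91 called higher and 21 lower of 150 tested. In both scalings 91 members were called higher and 9 lower. Of the 118 called members, 104 were higher and 8 lower with no overlap between the groups. The same share was not counted over all features, so these counts cannot be read as particular to the members. Without a filter, the mean of 155 of the 213 members was higher in the control, of 32 lower, and 26 were at 0 in both groups. A higher mean was thus found for 72.8% of the members and 79.2% of the genes in positions 7 to 12. All 3 control samples were above all 3 WT samples for 50.7% of the members and for 57.9% of the other open reading frames, so that the frequency of separation was not higher for members. The median of the tested members was above that of all features at every position, with 1.19 for the outermost members, 1.20, 1.14, 1.00 and 1.51 for the next, and 1.02 for the sixth position. It was 0.80 for members with no shared window, 1.34 for those that share under 50% of their windows and 1.31 for those that share more. All these medians are over tested members only, of which 30 of 152 passed the filter through the control alone. The filter thus favours members that are high in the control, and no such median without it is given by position or window. Of the 50 tested members with no shared window, 35 were called higher and 4 lower. Over all features 57.8% were called higher and 13.3% lower. Of the 197 tested genes in positions 7 to 12, 129 were called higher (65.5%) and 18 lower (9.14%). By arm, the members on the right arm of chromosome VI summed to the most, 334 TPM in WT and 928 TPM in the control, and HXK1, YFR052C-A and IRC7 lie there.

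The Y′ genes were higher in the control as a set. The summed set of 31 members was at 79.8, 104 and 110 TPM in WT and 367, 357 and 367 TPM in the control, 3.72 times as much (log2 fold change 1.90, SE 0.11, limma, adjusted p = 2.1e-06). Of the 8 helicase genes YRF1-1 to YRF1-8, 3 were called higher and none lower, or 2 and none after rescaling, with a median of 0.58. YRF1-4, the highest of them on average, was at 3.06, 7.53 and 6.0 TPM in WT and 6.26, 6.07 and 9.03 TPM in the control, and these groups overlapped. YLL066C, a gene within a Y′ element, was at 0.44, 0 and 0 TPM in WT and 14.2, 17.8 and 13.5 TPM in the control (limma log2 fold change 3.83, SE 0.24, adjusted p = 2.7e-06). YHL049C, of the same set, was at 1.46, 2.59 and 2.46 TPM and at 22.0, 19.4 and 22.5 TPM (2.83, SE 0.18, adjusted p = 3.3e-06). YHR218W was at 0, 1.42 and 0 TPM and at 6.63, 0.91 and 4.29 TPM (1.67, SE 0.58, adjusted p = 0.0344), a call with overlapping groups. YLL066C and YHR218W passed the filter through the control alone.

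The Cos family went in both directions. COS8 was at 6.69, 6.49 and 6.66 TPM in WT and 58.8, 61.6 and 68.3 TPM in the control, and COS1 at 13.2, 11.04 and 7.62 TPM and at 50.7, 51.4 and 50.7 TPM. Both were named after their values had been seen, to show the range. COS2 and COS3, which are identical and were listed with the same value, were each at 46.9, 50.1 and 44.1 TPM in WT and 30.0, 32.01 and 33.2 TPM in the control (limma log2 fold change -0.55, SE 0.08, adjusted p = 0.000518). COS6, the highest member of the family, was at 128, 116 and 122 TPM and at 114, 119 and 120 TPM, with overlapping groups. Of 8 tested Cos members, 5 were called higher and 2 lower, or 5 and 3 after rescaling. The set of 8 Cos genes linked by windows had a summed log2 fold change of 0.51 (SE 0.06, adjusted p = 8.2e-05), against a median of 0.36 over all features.

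Seripauperin members also went in both directions, gene by gene. PAU14 was at 0.42, 1.00 and 0.77 TPM in WT and 16.3, 14.9 and 13.6 TPM in the control (limma log2 fold change 3.22, SE 0.20, adjusted p = 2.7e-06). PAU18 was at 10.6, 8.5 and 10.6 TPM and at 0, 0.24 and 0 TPM (-3.33, SE 0.23, adjusted p = 5.6e-06). They share 64 of the 289 windows of PAU14, and their sum was 10.97, 9.5 and 11.3 TPM in WT and 16.3, 15.1 and 13.6 TPM in the control. PAU9 was at 0 TPM in WT and at 24.2, 2.79 and 17.7 TPM in the control (3.60, SE 0.63, adjusted p = 0.00127), and PAU12 at 6.35, 7.08 and 4.68 TPM and at 0, 0.64 and 3.11 TPM (-1.88, SE 0.48, adjusted p = 0.00878). Control sample 2 was the low one for PAU9, and also for the summed seripauperin set, which was at 27.1, 23.9 and 25.3 TPM in WT and 55.2, 36.5 and 55.0 TPM in the control (0.89, SE 0.16, adjusted p = 0.00129). Of 7 tested seripauperin members 3 were higher and 2 lower. Among them PAU14 and PAU9 passed the filter through the control alone, and PAU18 through WT alone. The list also held 10 tested genes that are not members, with 5 higher and 3 lower, or 5 and 4 after rescaling. Those higher were PAU2, PAU5, PAU7, PAU23 and DAN4, and those lower were TIR1, TIR2 and TIR3. DAN4 and the TIR genes encode cell wall mannoproteins and not seripauperins. The genes of this list that are not members are named here after their values had been seen.

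Members that handle sugars differed in size and direction. HXK1, a hexokinase that glucose represses, was at 17.9, 30.1 and 21.7 TPM in WT and 347, 350 and 386 TPM in the control (limma log2 fold change 3.93, SE 0.16, adjusted p = 3.1e-07). YFR052C-A, which has no RefSeq annotation and carries the number next to HXK1, was at 28.3, 26.1 and 26.1 TPM and at 307, 310 and 361 TPM (3.55, SE 0.08, adjusted p = 2.0e-08). Since the strand of the reads is not stated, reads of HXK1 and of a gene that overlaps it could not be told apart, and an overlap was not looked up for want of coordinates. MAL12 was at 1.33, 2.27 and 2.43 TPM and at 27.9, 25.9 and 25.8 TPM (3.21, SE 0.17, adjusted p = 1.3e-06), and its copy MAL32, which differs from it in 8 of 1755 bases, at 2.44, 2.72 and 2.16 TPM and at 15.2, 14.7 and 13.4 TPM. MAL33, a regulator of maltose genes, was at 6.37, 5.53 and 4.2 TPM and at 55.6, 56.6 and 57.1 TPM (3.19, SE 0.13, adjusted p = 3.3e-07). Of 7 tested maltose and isomaltose members, 6 were called higher and none lower, or 6 and 1 after rescaling, with a median of 1.92. IMA5 was not called (-0.27, SE 0.19). Of the genes of that list that are not members, MAL11 and MAL13, which lie inwards of MAL12 on the same arm, rose by 1.66 and 1.42 on the log2 scale, IMA2 rose by 0.52 and IMA1 was not called (-0.21). MPH1, called higher by 0.21, is a DNA helicase gene that the name pattern of the list took in, and after rescaling 2 of these 5 genes were called higher and 2 lower. HXT15, a hexose and polyol transporter, was at 2.26, 3.02 and 2.99 TPM and at 15.7, 17.0 and 15.7 TPM (2.19, SE 0.15, adjusted p = 4.3e-06). Its copy HXT16, which differs in 2 of 1704 bases, was listed at 0 in all 12 samples. Of 3 tested hexose transporter members, 2 were called higher and none lower, and 1 of 4 was higher and 1 lower after rescaling. HXT9 was not called (0.58), and HXT17 did not pass the filter, with means of 1.70 TPM in WT and 0.29 TPM in the control. The genes in this paragraph that the naming rule does not cover were chosen after their values had been seen.

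Other members encode oxidoreductases or enzymes of detoxification, and those given next were higher in the control, whereas AIF1 fell by 5.08 on the log2 scale and MAN2, a mannitol dehydrogenase, was at 0 there and did not pass the filter. YML131W was at 20.4, 20.8 and 21.1 TPM in WT and 361, 356 and 357 TPM in the control (limma log2 fold change 4.04, SE 0.06, adjusted p = 3.1e-09). AAD4 was at 13.2, 11.6 and 13.2 TPM and at 68.9, 59.6 and 75.2 TPM (2.33, SE 0.11, adjusted p = 5.5e-07), and all 3 tested aryl-alcohol dehydrogenase members were called higher, as were the 3 of that family that are not members, 2 of them after rescaling. GTT1, a glutathione S-transferase, was at 27.9, 31.7 and 32.6 TPM and at 120.2, 120.2 and 133 TPM (1.99, SE 0.09, adjusted p = 3.8e-07). HYR1, YDR541C and YCR102C rose by 0.70, 1.00 and 1.16 on the log2 scale. YLR460C was at 6.36, 6.70 and 7.11 TPM and at 9.59, 10.5 and 9.66 TPM (0.50, SE 0.12, adjusted p = 0.00781), against a median of 0.36 over all features. DDI2, a cyanamide hydratase, was at 2.82, 4.59 and 2.38 TPM and at 14.7, 14.9 and 11.99 TPM (1.83, SE 0.21, adjusted p = 0.000108). SOR1 and SOR2 together were at 7.48, 6.38 and 7.5 TPM in WT and 16.5, 16.2 and 19.4 TPM in the control.

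Other roles were represented by single genes. PHO12 was at 13.6, 18.2 and 12.2 TPM in WT and 100.5, 89.7 and 89.7 TPM in the control (limma log2 fold change 2.61, SE 0.14, adjusted p = 1.2e-06). Its paralogue PHO5, the main repressible acid phosphatase and not a member, rose by 3.19 on the log2 scale. SNO2, of pyridoxine synthesis, was at 7.39, 8.43 and 6.52 TPM and at 14.2, 19.8 and 13.9 TPM (1.00, SE 0.17, adjusted p = 0.000928), and FLO10, a cell wall flocculin, at 1.01, 2.68 and 2.31 TPM and at 7.61, 6.90 and 7.64 TPM (1.53, SE 0.26, adjusted p = 0.00094). ERO1, the thiol oxidase of oxidative protein folding, COX14, an assembly factor of cytochrome c oxidase, MSC1 and DLD3 rose by 0.82, 1.10, 1.89 and 0.71 on the log2 scale. FRE2, a ferric reductase, was not called, with 6.28, 6.30 and 4.37 TPM and 6.79, 6.58 and 8.04 TPM. Among the 17 silencing genes 9 were called higher and none lower, but 1 higher and 5 lower after rescaling, so no direction can be given for them. The 7 regulators of hypoxic and seripauperin genes had 2 higher and 3 lower, or 2 and 5 after rescaling.

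Some arms differed as stretches of neighbouring genes. On the right arm of chromosome XIV, AIF1, a mitochondrial cell death effector, was at 32.4, 34.8 and 31.2 TPM in WT and 33.9, 29.1 and 31.9 TPM in euc1∆, and was listed at 0 in all 6 W303 samples (limma log2 fold change of control against WT -5.08, SE 0.16, adjusted p = 6.8e-08). It was the single member at 0 in all 6 samples of one experiment and at 5 TPM or more in all 6 of the other. YNR071C, a gene 3 numbers further in, was at 3.11, 3.5 and 4.99 TPM in WT and at 0 in all 6 W303 samples (-2.26, SE 0.31, adjusted p = 0.000273). Between them MAN2 was at 1.35 to 2.07 TPM in DF5 and at 0 in W303, and HXT17 at 0.96 to 2.16 TPM and at 0.10 to 0.60 TPM. PDR18, which follows inwards and is not a member, was at 1.94 to 2.87 TPM in DF5 and at 0 or 0.02 TPM in W303. The genes on either side were expressed in both backgrounds: BSC5 had 3.44 to 5.21 TPM in DF5 and 11.6 to 14.1 TPM in W303, and COS10, towards the telomere, 7.11 to 14.6 TPM and 19.0 to 22.6 TPM. AIF1 and YNR071C share no window with another place, and in this comparison both passed the filter through WT alone. MAN2, HXT17, PDR18, BSC5 and COS10 were chosen after their values had been seen, as neighbours of AIF1.

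The left arm of chromosome VI gave the reverse. The outermost member, YFL068W, was at 0, 0.18 and 0.17 TPM in WT and 19.4, 13 and 19.8 TPM in the control (limma log2 fold change 4.02, SE 0.23, adjusted p = 1.6e-06). Its neighbour YFL067W was at 0, 0.72 and 0 TPM and at 20.1, 20.8 and 16.9 TPM (4.08, SE 0.26, adjusted p = 3.1e-06). YFL064C, further in, was at 0, 0 and 0.23 TPM and at 14.2, 11.8 and 10.7 TPM (3.62, SE 0.23, adjusted p = 2.9e-06). These genes passed the filter through the control alone. YFL065C and YFL066C, which lie between them, were at 0 in all 6 DF5 samples. All 5 belong to the set linked by Y′ sequence, and the share of windows found elsewhere runs from 50.2% for YFL067W to 100% for YFL068W. Inwards of them COS4, which is not a member, was at 0 to 0.31 TPM in DF5 and 5.14 to 8.70 TPM in W303, and the next genes DDI3, SNO3 and SNZ3 were expressed in both backgrounds, except that DDI3 was at 0 in 1 euc1∆ sample. These neighbours were chosen after their values had been seen. No member on the right arm of chromosome XIV was called in euc1∆ (6 tested) or in pGAL-EUC1 (2 tested). On the left arm of chromosome VI no member was tested in euc1∆, and none of 5 tested was called in pGAL-EUC1. The lack of calls does not show that the groups were alike. SNZ3 was at 9.18, 8.53 and 7.41 TPM in WT and 4.16, 7.39 and 5.46 TPM in euc1∆, with no overlap. It was not called (log2 fold change -0.51, SE 0.20).

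**Figure D4:**
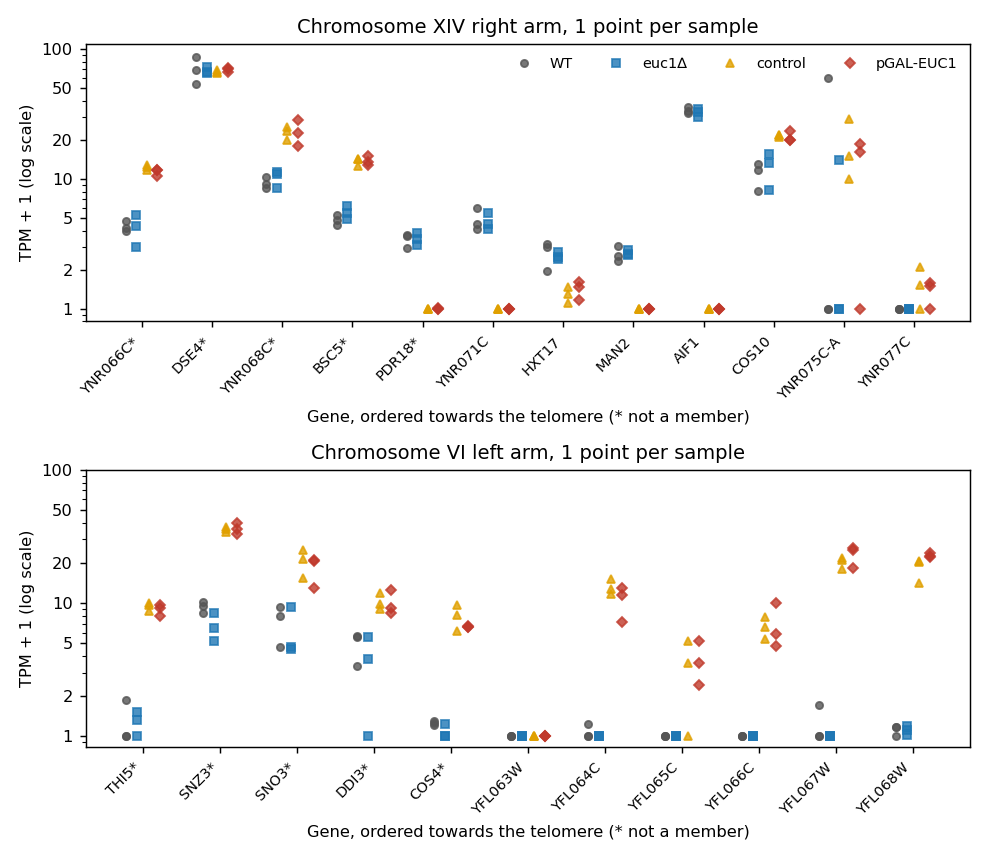
TPM + 1 (log axis) of neighbouring genes on the right arm of chromosome XIV and the left arm of chromosome VI, in order towards the telomere, 1 point per sample (an asterisk marks genes that are not members). PDR18 to AIF1 lie at or near 1, which is 0 TPM, in the 6 W303 samples and above it in the 6 DF5 samples, and YFL064C to YFL068W do so in DF5.

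On other arms several members were listed at or near 0. On the right arm of chromosome XIII the 6 members summed to 0 to 2.98 TPM in any sample, and on the left arm of chromosome III to 0 TPM in the DF5 samples and 2.46 to 5.73 TPM in W303, nearly all of it from YCL068C. On the left arm of chromosome VII, COS12, YGL262W, PAU11 and YGL260W were at 0 in all 6 W303 samples. They were low in DF5 as well. COS12 was at 1.15, 1.76 and 1.00 TPM in WT and 0.24, 1.03 and 0.42 TPM in euc1∆. YGL262W was at 0.46, 0.65 and 0.53 TPM in WT and at 0 in euc1∆. PAU11 and YGL260W were above 0 in WT sample 1 alone, at 1.34 and 1.37 TPM. VEL1, further in, was at 3.51 to 8.05 TPM in every sample. These genes were chosen after their values had been seen. A value of 0 says that no read was assigned to the gene in the reference sequence: a gene that is not transcribed, one that a strain lacks and one whose copies differ from the reference cannot be told apart in these data. Members lower in the control outside these stretches included IRC7, at 114, 120 and 118 TPM in WT and 67.6, 75.2 and 71.4 TPM in the control (limma log2 fold change -0.71, SE 0.07, adjusted p = 3.7e-05). YJL218W, a putative acetyltransferase, was at 20.8, 18.1 and 19.8 TPM and at 6.86, 7.02 and 9.06 TPM (-1.26, SE 0.13, adjusted p = 6.6e-05).

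Copies of the same sequence were not listed alike in every sample. SOR2 was at 3.74 TPM in WT sample 1, where SOR1 was also at 3.74 TPM, and at 0 in the other 2 WT samples, where SOR1 was at 6.38 and 7.5 TPM. In euc1∆ both genes had the same value in each sample, 3.40, 3.25 and 3.42 TPM, and in the 6 W303 samples SOR2 was at 0. The sum of both was 7.48, 6.38 and 7.5 TPM in WT and 6.8, 6.5 and 6.84 TPM in euc1∆. YRF1-1, YRF1-5 and YRF1-8 are identical over 5391 bases, and YRF1-3 and YRF1-7 over 5728 bases, yet control sample 1 listed 12.2, 0.52 and 11.7 TPM for the first 3 and 0 and 13.3 TPM for the other 2. ERR3 was at 0 in all 12 samples, while ERR1 and ERR2 together were at 1.00, 1.64 and 0.58 TPM in WT and 9.96, 8.92 and 11.4 TPM in the control.

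**Figure D5:**
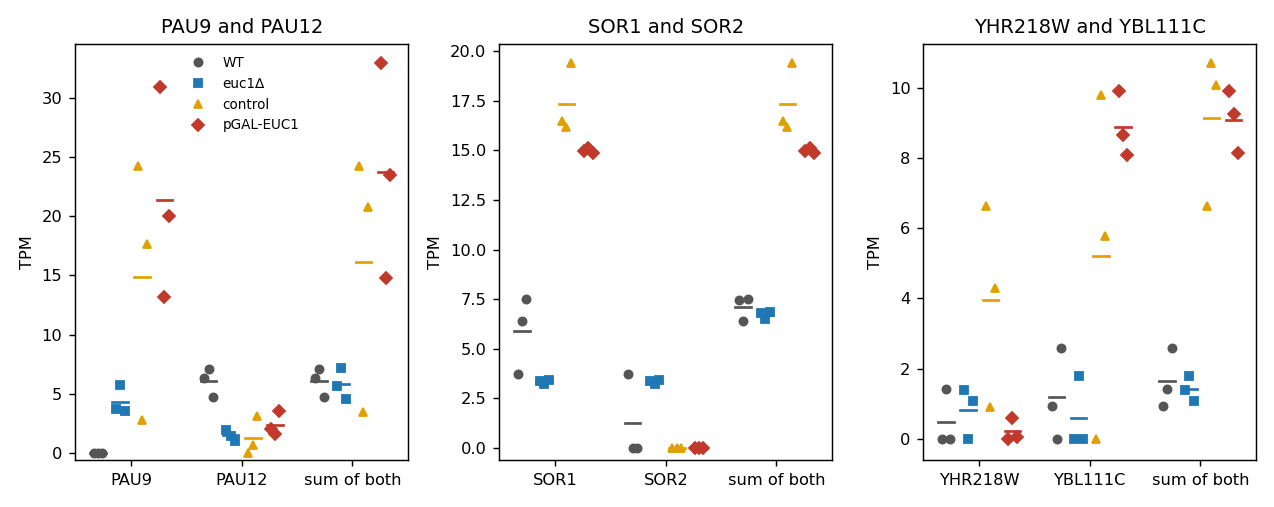
TPM of 3 pairs of members with shared sequence and of their sums, 1 point per sample, with the group mean as a line. PAU9, PAU12 and SOR1 separate WT from euc1∆ and YHR218W separates control from pGAL-EUC1, while the sums overlap in each of these comparisons. The SOR1 and SOR2 sum of the control lies above that of pGAL-EUC1.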

How the data were processed

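The authors sequenced polyA RNA as single-end reads of 75 bp, aligned them with STAR 2.6.0a to the R64 transcriptome, and deposited TPM values computed with RSEM 1.3.0 as 1 table of 12 samples. RSEM divides reads that fit several copies between them by estimate, and whether strand was used is not stated. TPM keeps no depth, so no counting intervals can be given, and samples summed to 973736 to 993435. GAL1 was at 4.86 to 7.36 TPM in glucose and 4379 to 4798 TPM in galactose. Of the 6825 identifiers, 5903 matched RefSeq.

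Here, log2(TPM + 1) was fitted with limma 3.58.1 (R 4.3.3; lmFit, eBayes with a trend) for each comparison of 3 against 3, for features with a mean of at least 1 TPM. P-values were two-sided and adjusted over all features, with 0.1 as threshold. The study tested its counts with DESeq2, which were not used here. Windows of 75 bases were matched in Python 3.11.15. The group of genes and the lists were chosen with earlier results of these data known, although the rule reads names only. Members were named if called with deletion or overexpression (or at p under 0.01 with deletion), if among the 10 highest or lowest called for control against WT without overlap, if among the 12 highest means, if at 0 in one experiment and at 5 TPM or more throughout the other, or if the highest of a family. The alternatives were other pseudocounts and filters, a rescaling, a fit over all 12 samples, no trend, the replicate number as a block, each sample left out, and, added after the values had been seen, shared genes summed.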

Additional observations from a re-analysis of the deposited data

How the results depend on the processing

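The counts of called members depended on the processing for the deletion and the overexpression, and less so for control against WT. In euc1∆ the count of 1 became 0 with a pseudocount of 0.1 or 5, a mean of at least 10 TPM, summed genes or any sample left out (0 to 0), and 2 in a fit over all 12 samples. The 4 members at an unadjusted p under 0.01 became 1 at a mean of at least 10 TPM, 8 over all 12 samples and 2 with summed genes, and 2 to 7 with a sample left out (2 without euc1∆ sample 3 or WT sample 2, 7 without WT sample 1). In pGAL-EUC1 the 16 called members became 10 at a mean of at least 10 TPM, 3 over all 12 samples and 4 to 14 with a sample left out. For control against WT the 118 became 53 at a mean of at least 10 TPM, where 62 members were tested, and 111 to 118 with a sample left out. Its median of 1.17 was 1.57 with a pseudocount of 0.1, 0.69 with 5 and 0.85 after rescaling. No log2 fold change of a named member that was called changed its sign. Of the named members, 3 of 4 with the deletion, 13 of 16 with the overexpression and 2 of 37 for control against WT (YHR218W and YLR460C) lost the threshold somewhere.

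Same-numbered samples did not deviate together (correlations from -0.107 to 0.189), so the replicate numbers were not taken as pairs. With the number as a replicate block, called members were 0 with the deletion (2 at an unadjusted p under 0.01), 14 with the overexpression and 117 for control against WT. The depth of a single value is unknown, and values under a few TPM, the range of most members, are the least certain.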
